A study of Homo sapiens with 7 samples.

Results

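The immediate early genes examined were 10 genes fixed by name: FOS, FOSB, FOSL1, FOSL2, JUN, JUNB, JUND, EGR1, IER2 and ATF3. They are 10 of the 26175 genes in the deposited expression table, and 9 of them carry a called gene transcription start site (TSS) among 10391 called gene TSSs. T-47D is a human luminal breast cancer cell line, and the study describes its cells as T47D/A1-2, a derivative line that overexpresses rat glucocorticoid receptor and holds an integrated MMTV luciferase reporter. Every sample came from this single line under a single condition, growth with 10% serum followed by at least 24 hours in 5% charcoal-stripped serum, with no stimulus. Initiation was mapped by Start-seq, in which the 5’ ends of short capped nuclear RNA mark TSSs to the nucleotide, and steady-state mRNA was measured by poly-A RNA-seq as FPKM, a fragment count scaled by transcript length and by library size. The 7 samples comprised 2 Start-seq, 3 RNA-seq, 1 MNase-seq and 1 FAIRE-seq library. The calls, which carry no read counts, came from 1 of the Start-seq libraries, and each FPKM is the authors’ single value over the merged RNA-seq replicates. No value therefore has an error between replicates, the depth is unknown, and no test between samples was possible.

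Immediate early genes are switched on within minutes of a growth, stress or hormone signal, without new protein synthesis. FOS and JUN family proteins pair through leucine zippers to form AP-1, a transcription factor that binds related DNA sites in many signal-responsive genes. Their promoters are known for serum response elements, whose CArG box binds SRF, and for cyclic AMP response elements (CREs), bound by CREB and ATF proteins. The mRNAs of several of these genes are known to be short-lived.

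The labelled cell type was checked against its markers. All 9 luminal epithelial markers had an FPKM of at least 1, from 44.1 for ESR1 to 1142 for KRT8. Among 5 markers of other cells, KRT5 and KRT14 of basal epithelium were listed at 0, PTPRC and PECAM1 were at 0.0208 and 0.00291, and COL1A1 of fibroblasts was at 8.82. The part of COL1A1-expressing cells in the levels below was not tested.

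Steady-state mRNA divided the genes. The lowest FPKM was that of FOSL1 at 0.102, followed by EGR1 at 0.201, FOS at 0.489 and FOSB at 0.779. FOSL2 at 5.00 and JUN at 6.85 lay between, ATF3 was at 14.4 and IER2 at 24.4, and JUNB at 34.8 and JUND at 35.7 were the most abundant. In bulk RNA, fewer cells with a transcript and less transcript per cell cannot be told apart. An FPKM of at least 1 was reached by 6 of the 10 genes and by 46.9% of all listed genes. The median FPKM was 5.93 for the 10 genes, 0.528 for all listed genes and 16.6 for the 9798 genes with a called gene TSS and a value.

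**Figure D1:**
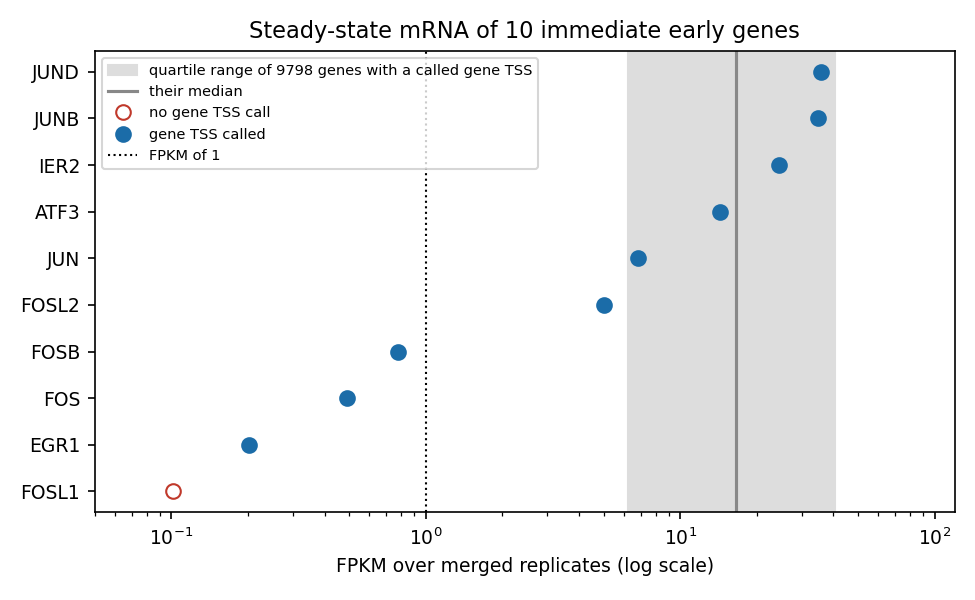
FPKM over merged replicates (horizontal, log scale) of the 10 immediate early genes, 1 point per gene with no error available; the grey band is the quartile range, 6.25 to 40.7, of the 9798 genes with a called gene TSS. The 4 points left of the dotted line at an FPKM of 1 are FOSB, FOS, EGR1 and FOSL1, and the open point has no gene TSS call.

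The FOS family provides the AP-1 partners that cannot pair with themselves. Its 4 FPKM values summed to 6.37, of which FOSL2, encoding the Fra-2 subunit, made up 78.5%. The FOSL2 level was 10.2 times that of FOS, 6.42 times that of FOSB and 49.2 times that of FOSL1, the gene of the Fra-1 subunit. FOSL2 shares its locus in the table with FLJ31356, listed at an FPKM of 0.200. Of all listed genes, 49.6% were lower than FOS, 51.9% lower than FOSB, 43.0% lower than FOSL1 and 64.3% lower than FOSL2.

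The JUN family, whose proteins pair with themselves as well as with FOS proteins, summed to an FPKM of 77.3, 12.1 times the sum of the FOS family. JUND, the member usually present without a stimulus, contributed 46.1%. The JUND and JUNB levels differed by a ratio of 1.02, which cannot be read as an order without an error. They were 5.20 and 5.08 times that of JUN. Of all listed genes, 67.4% were lower than JUN, 87.9% lower than JUNB and 88.2% lower than JUND.

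The remaining 3 genes spanned most of the same range. IER2, encoding a small nuclear protein, was 121 times the level of EGR1, a zinc finger factor that is among the fastest genes to respond to serum. ATF3, a stress-induced factor that pairs with JUN proteins, was 2.10 times the level of JUN. Of all listed genes, 45.9% were lower than EGR1, 76.6% lower than ATF3 and 83.6% lower than IER2.

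Initiation was called at 9 of the 10 genes, including FOS, FOSB and EGR1, whose FPKM was under 1. A gene TSS on its own strand, inside the locus widened by 1000 nts, was present at 46.9% of the 23672 listed genes whose strand is known. The authors called gene TSSs only around the starts of RefSeq mRNAs, and this background was not limited to genes with such an mRNA. FOSL1, the gene with the lowest FPKM, had none in its widened locus. An FPKM under 1 was found at 3 of the 9 called genes, against 6.23% of the 9798 genes with a called gene TSS and a value. Of those 9798 genes, 231 had a lower FPKM than EGR1, 390 a lower FPKM than FOS and 517 a lower FPKM than FOSB. At the other end, 71.9% of them were lower than JUND.

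The called positions, given in hg19, were close to annotated starts. FOS was called on chromosome 14 at 75745531 on the plus strand, FOSB on chromosome 19 at 45971254, FOSL2 on chromosome 2 at 28615725, EGR1 on chromosome 5 at 137801168 and ATF3 on chromosome 1 at 212782103, all on the plus strand and all exactly at the start of the MANE Select transcript, the reference transcript of the gene. JUNB was called on chromosome 19 at 12902299, 1 nt upstream of that start, and JUND on the minus strand of chromosome 19 at 18392431, 1 nt downstream of it. JUN was called on the minus strand of chromosome 1 at 59249741, 22 nts upstream. IER2 was called on the plus strand of chromosome 19 at 13261306, 81 nts downstream.

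Thus 7 of 9 calls lay within 1 nt of an annotated transcript start, against 26.8% of all gene TSSs. The authors chose between candidate positions by nearness to the RefSeq start, so closeness to an annotation is partly built into the calls. ATF3 has annotated transcripts that start far upstream, at position 212738676, and no gene TSS was called there. The widened IER2 locus also held a second call, on the minus strand at 13260611, whose nearest annotated start is that of STX10. It lies 695 nts from the IER2 TSS, points away from it and was not counted as IER2.

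Upstream antisense TSSs (uaTSSs) start on the opposite strand within 1000 nts upstream of the gene TSS. They were called at 5 of the 9 genes, JUN, JUND, EGR1, IER2 and ATF3, and at 53.1% of all gene TSSs. The IER2 uaTSS was closest, at position 13261165 and 141 nts upstream. It lies on the strand of STX10, upstream of the annotated STX10 start, and whether it belongs to STX10 was not tested. The ATF3 uaTSS at 212781822 lay 281 nts upstream, inside 2 annotated ATF3 transcripts that start farther upstream. The JUN uaTSS at 59250055 lay 314 nts upstream and the JUND uaTSS at 18392869 lay 438 nts upstream. The EGR1 uaTSS at 137800339 was farthest, 829 nts upstream, and 97.7% of all uaTSSs were at the same distance or closer. Over all 5519 uaTSSs the median distance was 200 nts (quartiles 127 and 329.5), and 4 of the 5 distances here were above it.

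Downstream antisense TSSs (daTSSs), called on the opposite strand within 2000 nts downstream, were found at 3 of the 9 genes, FOSB, JUN and JUND, and at 28.4% of all gene TSSs. The JUN daTSS at 59248998 was 743 nts downstream, the JUND daTSS at 18391293 was 1138 nts downstream and the FOSB daTSS at 45973069 was 1815 nts downstream. All 3 were beyond the median of 507 nts (quartiles 312.75 and 804.25) over 2956 daTSSs, and 98.5% of daTSSs lay at the same distance as that of FOSB or closer. With daTSSs up to 1000 nts only, JUN alone would keep a call.

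JUN, JUNB and JUND are genes of 1 exon, so a daTSS inside them is exonic. The JUN daTSS lay in the 5’ UTR, 256 nts before the coding start. The JUND daTSS lay in the coding sequence, 1001 nts after the coding start of a gene of 1929 nts. The FOSB daTSS lay in intron 1 and outside the exons of every annotated FOSB transcript. JUNB, a gene of 1830 nts, had no daTSS. The authors removed daTSS calls near annotated starts or near further sense initiation, so a missing daTSS does not show that antisense initiation was absent.

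JUN and JUND carried both antisense calls, as did 17.5% of all gene TSSs. Their antisense TSSs were 1057 nts apart at JUN and 1576 nts apart at JUND. FOS, FOSL2 and JUNB had neither call, as did 35.9% of all gene TSSs. These 3 genes include FPKM values of 0.489, 5.00 and 34.8, and the pair with both calls had 6.85 and 35.7. The shares with each kind of call at these 9 genes were near those of all gene TSSs.

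Promoter sequence was read around each called gene TSS, with the TSS at +1. The 7 stretches below all hold the CRE core, and the other marked sequences are in some of them. Capitals mark the CRE core TGACG (or CGTCA, the same core on the other strand), the TATA box (TATAA), the CArG box, the letters TGACATCA in JUN, and the single TSS base. Each runs from -150 to +10 in the direction of the gene.
FOS, chr14:75745381-75745540, plus strand: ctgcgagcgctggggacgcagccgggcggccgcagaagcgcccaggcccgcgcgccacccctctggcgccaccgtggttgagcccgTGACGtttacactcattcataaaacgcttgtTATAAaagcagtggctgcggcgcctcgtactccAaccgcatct
FOSB, chr19:45971104-45971263, plus strand: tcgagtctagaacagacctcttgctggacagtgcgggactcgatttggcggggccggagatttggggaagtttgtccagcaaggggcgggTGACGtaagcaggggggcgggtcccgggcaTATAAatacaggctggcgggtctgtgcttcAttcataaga
ATF3, chr1:212781953-212782112, plus strand: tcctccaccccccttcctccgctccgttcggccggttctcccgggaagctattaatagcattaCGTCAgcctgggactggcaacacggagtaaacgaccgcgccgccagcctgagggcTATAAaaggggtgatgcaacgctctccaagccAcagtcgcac
JUNB, chr19:12902149-12902308, plus strand: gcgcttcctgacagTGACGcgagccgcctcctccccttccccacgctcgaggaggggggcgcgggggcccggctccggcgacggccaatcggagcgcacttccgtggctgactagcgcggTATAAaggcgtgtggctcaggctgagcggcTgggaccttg
JUND, chr19:18392422-18392581, minus strand: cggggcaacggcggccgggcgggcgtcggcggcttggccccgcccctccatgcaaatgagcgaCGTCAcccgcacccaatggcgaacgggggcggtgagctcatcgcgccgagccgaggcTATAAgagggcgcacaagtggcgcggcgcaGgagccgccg
JUN, chr1:59249732-59249891, minus strand: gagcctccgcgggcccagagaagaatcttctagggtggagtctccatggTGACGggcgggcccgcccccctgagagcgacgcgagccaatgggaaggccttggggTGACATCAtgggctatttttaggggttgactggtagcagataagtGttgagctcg
EGR1, chr5:137801018-137801177, plus strand: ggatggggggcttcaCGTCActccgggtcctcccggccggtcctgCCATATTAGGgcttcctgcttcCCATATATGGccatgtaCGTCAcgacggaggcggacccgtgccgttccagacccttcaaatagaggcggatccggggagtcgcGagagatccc

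The CRE core was present between -250 and +50, on either strand, at all 9 called genes and at 34.6% of all gene TSSs. The first base of the copy nearest the TSS lay at -64 in FOS, -60 in FOSB, -66 in FOSL2, -66 in EGR1, and -87 in both JUND and ATF3. Further copies in the window lay at -201 in FOSL2, at -135 in EGR1, and at -201 and -198 in JUND. At least 1 copy starting between -90 and -55, a window chosen after these positions were seen and built on the nearest copies, was found at these 6 genes and at 7.09% of all gene TSSs. The core lay farther upstream in JUN, JUNB and IER2, at -101, -136 and -221. In the 30 bases shown for the genes not printed above, capitals mark the core.
FOSL2, chr2:28615647-28615676, plus strand: ggagtctggggtTGACGtgagtgaatccac
IER2, chr19:13261073-13261102, plus strand: cacccccgccccCGTCAcgccaccatcgag

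The whole palindromic CRE, TGACGTCA, which contains the core on both strands, was found in this window only at JUND, at -201 to -194, and at 3.10% of all gene TSSs. FOSB had another at -325 to -318, beyond the window. The 8 letters TGACATCA, a variant site of the kind that AP-1 and ATF proteins bind, lay at -45 to -38 in JUN and were in the window of 0.895% of all gene TSSs. They were looked for after the JUN sequence had been seen.

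A TATA box, TATAA on the sense strand with its first base between -40 and -20, was present at 5 of the 9 genes, FOS, FOSB, JUNB, JUND and ATF3, and at 2.50% of all gene TSSs. Its first base was at -33 in FOS, at -32 in ATF3 and at -30 in FOSB, JUNB and JUND. All 5 also held the CRE core, which followed from its presence at all 9 called genes. The combination was found at 1.02% of all gene TSSs, 106 of the 260 with this TATA box, and was counted after both results were known. The FPKM of the 5 genes ranged from 0.489 to 35.7, and 2 of them were under 1. Of the 256 gene TSSs in the whole set with this TATA box and a value, 17.6% had an FPKM under 1, against 5.74% of the 10004 without it. The median FPKM went the other way, 21.3 with this TATA box and 16.8 without it. A uaTSS was called at 2 of the 5 genes with the TATA box and at 3 of the 4 without it, while over all gene TSSs the shares were close, 48.8% with the TATA box and 53.2% without it.

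The CArG box, which serum response factor binds, was found between -250 and +50 at EGR1 and at 0.934% of all gene TSSs. EGR1 had a pair there, at -105 to -96 and at -83 to -74, and 5 of 10391 gene TSSs had 2 or more in that window. When the window was lengthened to -500, FOS and FOSB were added, with 2.11% of all gene TSSs holding a box. These 3 genes are those with a called gene TSS and an FPKM under 1. Over the 213 gene TSSs with a CArG box in the longer window and a value, 5.16% had an FPKM under 1, close to the 6.03% of all gene TSSs with a value. The boxes beyond -150 are shown with 10 bases on each side and the box in capitals.
FOS, -314 to -305, chr14:75745207-75745236, plus strand: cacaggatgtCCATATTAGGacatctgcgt
FOSB, -274 to -265, chr19:45970970-45970999, plus strand: cggccgagctCCTTATATGGctaattgcgt
EGR1, -418 to -409, chr5:137800740-137800769, plus strand: cccggaaatgCCATATAAGGagcaggaagg
EGR1, -380 to -371, chr5:137800778-137800807, plus strand: ccggaacaacCCTTATTTGGgcagcacctt
EGR1, -364 to -355, chr5:137800794-137800823, plus strand: ttgggcagcaCCTTATTTGGagtggcccga

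The other motifs were searched on both strands from -250 to +50. The GC box GGGCGG, bound by SP1, was present at 6 of the 9 genes and at 72.4% of all gene TSSs, with 6 copies at JUND and 4 at IER2. CCAAT was found at JUN, JUNB and JUND, with its first base between -75 and -65, and at 35.3% of all gene TSSs. The ETS core CCGGAA was found at FOSB and IER2 and at 30.9%. The AP-1 site TGAGTCA was found at FOSL2, at +5 to +11, and at 2.35%. None of the 9 windows held the EGR site, GCGGGGGCG or GCGTGGGCG, against 10.0% of all gene TSSs. When the window was lengthened to -500, 1 of the 9 genes, JUND, held the EGR site, against 13.2% of all gene TSSs. FOSL1, read from its MANE Select start for want of a call, held an AP-1 site at -1 to +6 and a CRE core at -242.

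Initiation used a purine directly preceded by a pyrimidine at 7 of the 9 gene TSSs and at 66.1% of all gene TSSs. The exceptions were JUNB, which started on a pyrimidine, and JUND, where a purine came before the start. FOS, FOSB, IER2 and ATF3 started on the A of a C-A step, as did 30.3% of all gene TSSs. At antisense sites the pattern held for 3 of 5 uaTSSs and 2 of 3 daTSSs, near the 64.7% of all uaTSSs and 66.9% of all daTSSs. The antisense sequences of JUN and JUND, which carried both calls, are shown on the antisense strand with -1 and +1 in capitals.
JUN uaTSS, chr1:59250040-59250069, plus strand: gtcttggggtttgaCTgtctagtgacggtg
JUN daTSS, chr1:59248983-59249012, plus strand: gcgctacccggcttTGaaaagtcgcggtca
JUND uaTSS, chr19:18392854-18392883, plus strand: gggatggggtcccgCAtggctaaataactc
JUND daTSS, chr19:18391278-18391307, plus strand: cagcagctggcagcCGctgttgacgtggct

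GC content over 500 nts on each side of the gene TSS had a median of 66.4% in the 9 genes and 63.0% over all gene TSSs, and 8 of the 9 were above that median. JUND was highest at 77.8%, above 98.0% of all gene TSSs, and FOSB lowest at 60.7%. FOSB was also GC-poor downstream, with 54.4% after the gene TSS and 67.0% before it, a difference of -12.6 percentage points that was lower at only 7.05% of gene TSSs. All 3 daTSSs had higher GC content in the 500 nts downstream of the daTSS than upstream, by 2.60 percentage points at FOSB, 5.80 at JUN and 5.00 at JUND. These differences were larger than at only 23.4%, 32.7% and 31.0% of all daTSSs. Among uaTSSs, those of JUN and IER2 had the higher GC content downstream, by 4.20 and 10.4 percentage points, larger than at 93.3% and 97.2% of all uaTSSs. The difference was -2.80 percentage points at EGR1, -4.40 at ATF3 and -17.8 at JUND, larger than at 82.9%, 78.3% and 29.7% of all uaTSSs. The IER2 uaTSS lies upstream of the annotated STX10 start on the same strand.

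Other genes of the same programme were read from lists of related genes. Of 13 further immediate early transcription factors, 7 had an FPKM of at least 1, beside 46.9% of all listed genes, and the median was 1.51. SRF was highest at 22.2, followed by the nuclear receptor NR4A1 at 10.4 and KLF10 at 10.3, while EGR4 was listed at 0. A gene TSS was called at 8 of the 13, all 8 with a uaTSS and 4 with a daTSS, beside 53.1% and 28.4% of all gene TSSs. In these lists the counts are per gene and the shares per gene TSS, and some genes, such as NR4A1, had 2 gene TSSs. A gene TSS in the widened locus was present at 46.9% of all listed genes with a known strand. KLF2, named after its value was seen, was the only called gene of the 8 under an FPKM of 1, at 0.787. The share under 1 was 6.23% over all genes with a called gene TSS and a value.

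Of 17 immediate early genes that do not encode transcription factors, 14 had an FPKM of at least 1, beside 46.9% of all listed genes. Their median was 10.2. The survival factor MCL1 at 91.1, IER3 at 72.8 and the mRNA decay factor ZFP36L1 at 42.4 were the most abundant. A gene TSS was called at 16, of which 9 had a uaTSS and 7 a daTSS, beside 53.1% and 28.4% of all gene TSSs. Among these 16, SGK1 at 0.233 and ARC at 0.139, also named after their values were seen, were under 1. Over all genes with a called gene TSS and a value, 6.23% were under 1. Of 16 further bZIP proteins related to AP-1, 14 had an FPKM of at least 1, beside 46.9% of all listed genes, with a median of 7.06. ATF4 at 133, ATF5 at 46.7 and ATF7 at 36.5 led them. None of the 10 with a gene TSS call was under 1, beside the same 6.23%. Of these 10, 7 had a uaTSS and 4 a daTSS, beside the same 53.1% and 28.4% of all gene TSSs.

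The inputs to these promoters were read in the same way. Of 25 genes of serum response factor, its cofactors and the MAP kinase cascade, 23 had an FPKM of at least 1, with a median of 21.2, beside a median of 16.6 for all genes with a called gene TSS, of which 93.8% had an FPKM of at least 1. JUNB, JUND and IER2 were above the median of this list. MAPK3, encoding ERK1, was highest at 76.8, and the kinase ARAF was at 55.0. RPS6KA3 was listed at 0, and an exact 0 in FPKM may be a failed estimate. The other gene under 1, RPS6KA2, was at 0.0202 and was named after its value was seen. None of the 22 with a gene TSS call was under an FPKM of 1. A uaTSS was called at 16 of them and a daTSS at 10, beside 53.1% and 28.4% of all gene TSSs.

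**Figure D2:**
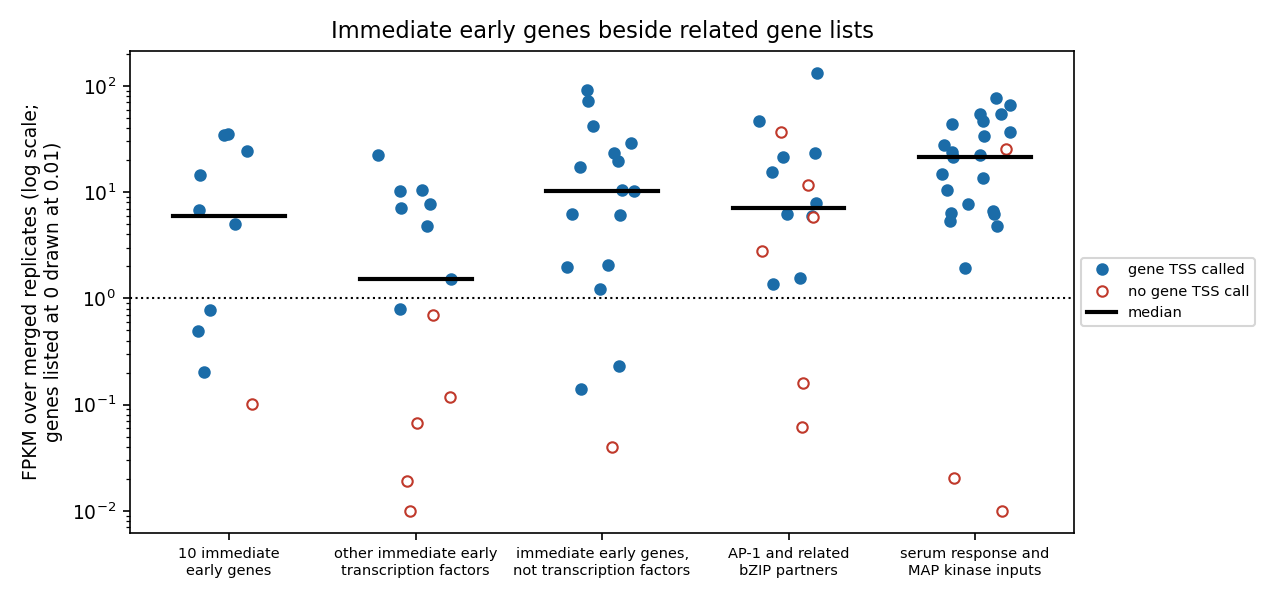
FPKM over merged replicates (vertical, log scale, with genes listed at 0 drawn at 0.01) of the 10 immediate early genes and of 4 lists of related genes; points are genes, filled with a gene TSS call and open without one, and bars are medians. Filled points under the dotted line at an FPKM of 1 are FOS, FOSB and EGR1 in the first column, KLF2 in the second and SGK1 and ARC in the third.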

How the data were processed

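The deposited calls of gene TSSs, uaTSSs and daTSSs come from Start-seq replicate 1. Per the labels and the study's methods, reads were trimmed with cutadapt 1.2.1 and aligned to hg19 with Bowtie 0.12.8. The authors called TSSs from 5’ ends above a read threshold, gene TSSs in windows around RefSeq mRNA starts, with a filter on daTSSs. The deposited score is 0 in every call, so depth is unknown. The deposited FPKM values were made by the authors with TopHat 2.0.4, duplicate removal, merging of 3 replicates and Cufflinks 2.2.1. MNase-seq, FAIRE-seq and Start-seq replicate 2 were not used here.

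Gene TSSs were taken inside each locus widened by 1000 nts and antisense calls by shared identifier. Each of the 10391 gene TSSs was also assigned to the nearest start in GENCODE 44 lifted to GRCh37, whose sequence was used for hg19 positions. RefSeq synonyms with an overlapping locus served for older symbols, so that 23672 of 26175 genes matched, and 10260 gene TSSs received an FPKM. Of the listed symbols, 28 had become dates. Printed promoters stop 10 nts past the TSS. Motif search was tested on simulated data. Analysis used Python 3.11.15, pandas 2.3.3 and numpy 2.4.6.

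The genes and lists were chosen with earlier results of these data known. Named genes were the 10 genes and, from each list, the 3 with the highest FPKM and those listed at 0. One named gene is not reported here. Alternatives were other widenings, rankings, FPKM thresholds, pseudocounts in log2(FPKM + 0.1), windows, anchors and background gene TSSs.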

Additional observations from a re-analysis of the deposited data

How the results depend on the processing

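Each value rests on 1 library or 1 merged column, so its error is unknown. Of 53 alternatives, 38 moved no value beyond its interval, its spread over the genes or 1.5 times its count. Among gene TSSs with no other within 5000 nts, the background shares rose to 58.5% with a uaTSS and 32.9% with a daTSS. With daTSSs up to 1000 nts only, 1 of the genes had a daTSS and the background was 24.1%. The median percentile of the 10 FPKM values, 65.8 among all listed genes, was 27.1 among genes with an FPKM of at least 1 and 23.9 among genes with a called gene TSS. All 10 genes had an FPKM of at least 0.1, as did most of the listed genes, and FOSL1 was only just above that threshold. Lengthening the locus by 5000 nts added a call to FOSL1 that is nearest to FIBP, and without widening 7 genes had a call. Leaving out a replicate was not possible with merged values. No paired analysis was possible because the deposited values carry no replicate columns and no group comparison was tested.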
